A study of Mus musculus with 10 samples.

Results

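The complement genes C3, C4b, Cfb, C1ra, Serping1 and Cfd, which stromal cells as well as the liver can transcribe, were examined in osteoblastic lineage cells of leukaemic and control mice. Members were taken by gene symbol, and each gene was read from its brightest probe set (by mean over the 10 arrays) among those annotated to exactly 1 gene. Of the 6 genes, 4 (C1ra, C4b, Cfb and Serping1) could be measured in this way, out of 19938 genes in all. No probe set is named for C3 or Cfd in the annotation used here, and these 2 genes were not analysed. The 5 samples of the group called BA came from mice that carried Scl-tTA::TRE-BCR/ABL, in which a transactivator driven by the Scl promoter, a promoter of blood-forming cells, switches on the BCR/ABL oncogene once doxycycline is removed. The 5 samples of control mice are labelled only as control, with no alleles named. Both groups were C57BL/6 mice taken off doxycycline at 5 weeks of age, which starts a myeloproliferative disease in BA mice, and cells were collected 5 to 6 weeks later. Cells freed from crushed bone by collagenase were stained for blood lineage markers, CD45, CD31, Sca-1 and CD51 and sorted, and their RNA was amplified before hybridisation. The labels do not say whether an array stands for 1 mouse or a pool, so p-values set a group difference against the spread between these samples.

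Complement is a cascade of plasma proteases and adhesive fragments. In the classical pathway C1q recruits the proteases C1r and C1s, which cut C4 and C2 to form an enzyme that cleaves C3. In the alternative pathway factor B, cut by factor D, forms the corresponding enzyme on C3 that has already been deposited. The C1 inhibitor, encoded by Serping1, blocks C1r and C1s, and it also blocks proteases of the contact system such as kallikrein. Most circulating complement comes from the liver, but fibroblasts, bone cells and macrophages also transcribe several of these genes, and inflammatory cytokines raise C4, factor B and C3 in many such cells.

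Values are the authors' GCRMA signals on a log2 scale, on which a difference of 1 is a doubling. Array medians lay between 5.91 and 6.02. The sorted cells carried skeletal transcripts: the mean of 5 osteoblast markers lay between 8.89 and 9.68 on BA arrays and between 9.17 and 9.99 on control arrays, and that of 5 chondrocyte markers between 10.94 and 11.31 on BA arrays and between 10.7 and 11.2 on control arrays. The mean of 10 pan-haematopoietic markers was 8.46 on BA replicate 5, against 6.54 to 6.87 on BA replicates 1 to 4 and 6.15 to 6.88 on control arrays. For 10 macrophage markers the mean was 8.23 there, between 6.30 and 7.21 on BA replicates 1 to 4, and between 5.87 and 6.81 on control arrays. Neutrophil markers averaged 6.28 to 8.68 on BA and 5.77 to 7.76 on control arrays, adipocyte markers 6.37 to 6.71 and 6.55 to 7.34, and endothelial markers 5.35 to 5.54 and 5.39 to 5.84. Of these lists the genes with the highest difference were Cd53 (1.39), Lyz2 (2.05), Cxcr2 (2.65), Fabp4 (0.12) and Emcn (0.16), and those with the lowest were Was (-0.14), Fcgr1 (-0.03), Ctsg (-0.53), Adipoq (-2.13) and Pecam1 (-0.27), in BA minus control. In the skeletal lists Alpl (0.47) and Matn3 (0.51) had the highest difference and Col1a1 (-1.25) and Comp (0.00) the lowest, and among hepatocyte genes Alb (-0.03) and Ttr (-0.43). Hepatocyte markers averaged 5.31 to 5.60 on BA arrays and 5.40 to 5.69 on control arrays (4 genes, albumin among them at 5.12 ± 0.05 in BA and 5.15 ± 0.19 in control cells, SD, n = 5 each). Xist, a transcript made from inactive X chromosomes, was high on BA replicates 2, 4 and 5 (10.6 to 10.7) and on control replicates 4 and 5 (9.81 to 10.4), and low on the other arrays (3.85 to 5.08). The labels give no sex.

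Serping1 averaged 8.56 ± 0.61 in BA and 10.03 ± 0.89 in control cells, a level 2.78-fold lower in BA cells, while C4b averaged 1.56-fold, Cfb 1.28-fold and C1ra 1.07-fold higher in BA cells, each with a 95% interval of the difference that includes 0 (SD, n = 5 each). Over all genes 62.1% averaged lower in BA cells. None of the 4 passed the threshold of 0.05 after Benjamini-Hochberg adjustment over all genes in limma, a threshold that 0.00502% of genes (1 gene) passed. At an unadjusted p under 0.05 the count was 1 of 4, Serping1, against 9.4% of all genes. The groups overlapped for each of the 4, while they did not overlap for 1.67% of genes. In bulk samples, fewer cells that make a transcript and less transcript per cell cannot be told apart.

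**Figure D1:**
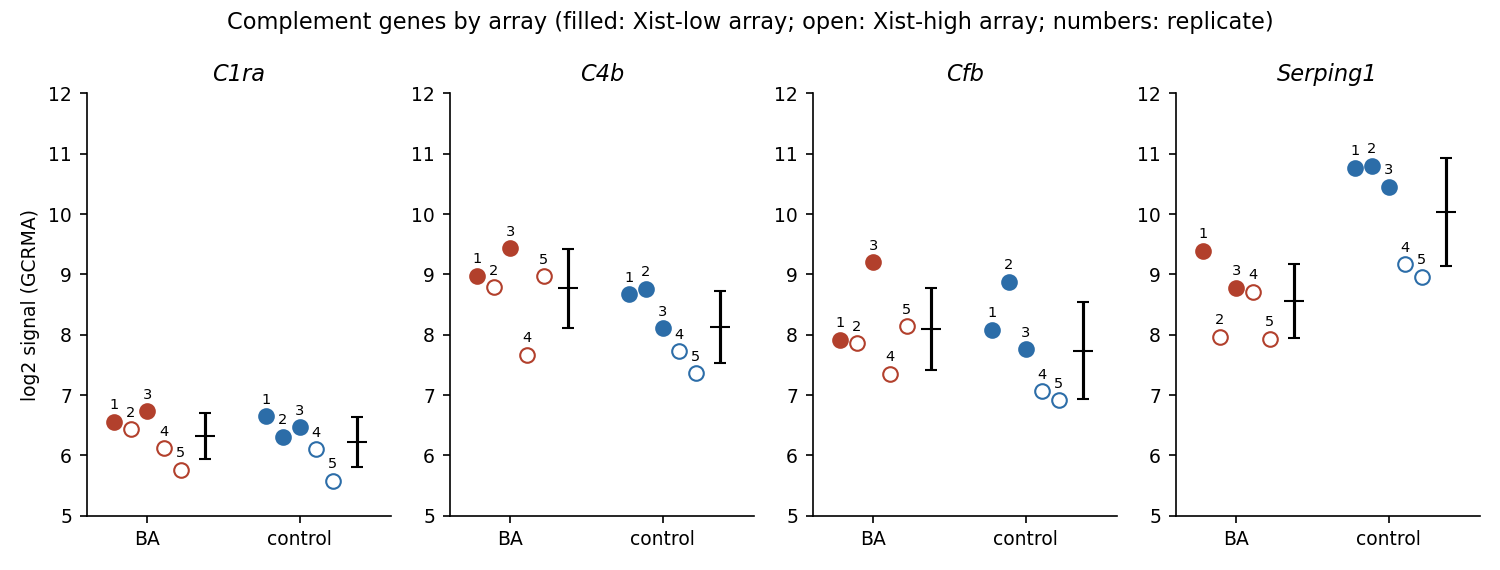
Log2 signal (y axis) of C1ra, C4b, Cfb and Serping1 on each of the 10 arrays, BA left and control right; points are single arrays numbered by replicate, filled for Xist-low and open for Xist-high arrays, and bars are mean ± SD (n = 5 each). Serping1 is at 7.93 to 9.39 on BA arrays and at 8.96 to 10.8 on control arrays, and in both groups the open points mostly lie below the filled ones.

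C1ra encodes the protease C1r, the first enzyme of the classical pathway. Its log2 signal on BA replicates 1 to 5 was 6.56, 6.43, 6.73, 6.12 and 5.76, against 6.65, 6.31, 6.47, 6.10 and 5.58 on control replicates 1 to 5. The ranges almost coincided, and replicate 5 was the lowest array of each group. C1ra was the only measured member with both group means under 7. They were 6.32 in BA and 6.22 in control cells, near the array medians of 5.91 to 6.02. The difference of BA minus control was 0.10 ± 0.23 (SE), with a 95% interval from -0.42 to 0.61 (adjusted p = 0.879, limma), and its sign turned when BA replicate 3 (-0.0045) or control replicate 5 (-0.06) was left out. A second probe set is named for both C1ra and its copy C1rb and so was not used for either. It read 5.08, 5.42, 7.49, 4.88 and 5.56 on the BA arrays and 5.79, 5.51, 5.37, 5.35 and 4.98 on the control arrays, so that BA replicate 3 alone stood above the control arrays.

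C1ra and C1rb lie near each other on chromosome 6, with C1s1 and C1s2, the genes of the partner protease C1s, in the same cluster. The starts of the C1ra and C1rb genes are shown here because 1 probe set cannot separate these copies. The sequences are the 250 bases before the annotated start, from RefSeq (GRCm38.p6, plus strand, chr6:124512371-124512620 for C1ra and chr6:124570180-124570429 for C1rb), with the stretch that aligns between them in capitals. Of 99 aligned bases, 93 are identical (93.9%). These are the last 99 bases of the C1ra window and the first 99 of the C1rb window. The alignment thus stops at the window edges, and sequence beyond them was not compared.
C1ra: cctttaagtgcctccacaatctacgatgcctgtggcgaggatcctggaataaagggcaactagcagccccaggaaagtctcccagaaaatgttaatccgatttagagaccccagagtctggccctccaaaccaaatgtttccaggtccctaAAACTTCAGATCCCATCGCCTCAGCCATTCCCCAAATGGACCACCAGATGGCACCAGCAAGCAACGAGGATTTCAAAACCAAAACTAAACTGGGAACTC
C1rb: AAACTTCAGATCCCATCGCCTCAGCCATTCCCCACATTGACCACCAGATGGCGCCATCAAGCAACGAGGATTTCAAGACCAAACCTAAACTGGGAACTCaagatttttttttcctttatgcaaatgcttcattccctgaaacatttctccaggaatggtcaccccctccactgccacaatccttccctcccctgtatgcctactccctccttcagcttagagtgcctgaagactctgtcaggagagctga
The C1s1 window is shown beside them because C1r and C1s act as a pair (GRCm38.p6, minus strand, chr6:124542360-124542609). In capitals is a match to TTGCNNAA, a core motif of the C/EBP factors, which reads so on the strand opposite to the one printed.
C1s1: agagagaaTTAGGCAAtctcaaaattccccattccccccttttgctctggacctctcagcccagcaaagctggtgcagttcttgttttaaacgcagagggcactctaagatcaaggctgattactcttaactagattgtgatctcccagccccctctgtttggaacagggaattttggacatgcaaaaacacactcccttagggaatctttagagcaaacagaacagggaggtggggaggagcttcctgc
A search for 5 short motifs covered both strands of these windows: TTGCNNAA, the interferon motifs GAS (TTCNNNGAA) and ISRE (GAAA, a pair of unspecified bases, GAAA), the NF-kB motif (GGG, a pair of unspecified bases, TTTCC) and the TATA motif TATAAA. None of the 5 was found in the C1ra window, and the C1s1 window shown held the 1 match in capitals. A second annotated C1s1 start gives another, overlapping window (chr6:124542322-124542571), which held none of the 5. The C1rb window held a match to TTGCNNAA, again on the strand opposite to the one printed, and a match to TTCNNNGAA. Both lie outside the aligned stretch (135 and 119 bases before the C1rb start). The C1ra bases opposite these matches would lie past the end of its window and were not searched. Whether C1ra lacks these motifs there is therefore unknown. Of 32851 promoter windows of the same length, 9.56% held TTGCNNAA, 7.02% the GAS motif, 2.98% the ISRE motif, 1.41% the NF-kB motif and 12.4% TATAAA. Of the measured members, 1 (C1ra) had a window in the promoter table, and C4b, Cfb and Serping1 had none there.

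C4b encodes complement C4, whose cleaved fragment attaches to surfaces and forms part of the classical C3-cleaving enzyme. Its log2 signal was 8.98, 8.79, 9.43, 7.67 and 8.97 on BA replicates 1 to 5, against 8.67, 8.76, 8.11, 7.73 and 7.36 on control replicates 1 to 5. Of the 5 BA arrays, 4 lay above every control array, and BA replicate 4 lay below all but 1 of them. The difference was 0.64 ± 0.36 (SE; 95% interval -0.15 to 1.43; adjusted p = 0.555, limma), and with each array left out in turn it lay between 0.45 (control replicate 5 out, unadjusted p = 0.23) and 0.92 (BA replicate 4 out, unadjusted p = 0.0117, adjusted p = 0.505, limma). C4a, the sex-limited copy of C4 that lies next to C4b in the class III part of the major histocompatibility complex and is listed as a transcribed pseudogene, averaged 6.59 ± 0.34 in BA and 6.46 ± 0.20 in control cells (difference 0.13 ± 0.17, adjusted p = 0.774, limma). Probe sets of these near-identical copies may share signal, so the split between C4b and C4a is uncertain.

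Cfb encodes factor B, the protease subunit of the alternative C3-cleaving enzyme, and lies in the same chromosome 17 cluster as C4b and C2. Its log2 signal was 7.92, 7.86, 9.20, 7.35 and 8.14 on BA replicates 1 to 5, against 8.08, 8.88, 7.76, 7.06 and 6.91 on control replicates 1 to 5. BA replicate 3 was the highest array and control replicate 5 the lowest, as they were for C4b and C1ra. The difference was 0.36 ± 0.42 (SE; 95% interval -0.57 to 1.29; adjusted p = 0.747, limma). Its size rested on single arrays: the difference was 0.08 with BA replicate 3 left out, 0.15 with control replicate 5, 0.19 with control replicate 4, 0.54 with BA replicate 4 and 0.64 with control replicate 2 (adjusted p between 0.536 and 0.962, limma).

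Serping1 encodes the C1 inhibitor, a serpin that inactivates C1r and C1s. Its log2 signal was 9.39, 7.97, 8.78, 8.71 and 7.93 on BA replicates 1 to 5, against 10.8, 10.8, 10.5, 9.17 and 8.96 on control replicates 1 to 5. Of the 5 BA arrays, 4 lay below every control array, and BA replicate 1 lay above control replicates 4 and 5. The difference was -1.47 ± 0.43 (SE; 95% interval -2.43 to -0.52; unadjusted p = 0.00632, adjusted p = 0.452, limma). A mean difference of -1 or lower was seen for 0.657% of all genes. When each array was left out in turn the difference lay between -1.74 and -1.28, with unadjusted p between 0.0018 and 0.0176 (limma). With the pan-haematopoietic mean as a covariate it was -1.39 ± 0.50 and without BA replicate 5, the array rich in blood cell transcripts, -1.32 ± 0.46 (SE; adjusted p = 0.754 and 0.703, limma).

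The member values also differed by Xist level within each group. In control cells the 2 Xist-high arrays lay below the 3 Xist-low arrays for 4 of 4 members. In BA cells the 3 Xist-high arrays lay below the 2 Xist-low arrays for 3 of 4, all but Cfb. The gaps in BA cells were narrow. The highest Xist-high and lowest Xist-low values were 8.97 and 8.98 for C4b, 8.71 and 8.78 for Serping1 and 6.43 and 6.56 for C1ra. Over all genes the Xist-high arrays lay below the Xist-low arrays for 7.01% in control cells, 9.76% in BA cells and 0.938% in both. For Serping1 the Xist-high arrays averaged 8.20 and the Xist-low arrays 9.09 in BA cells, against 9.07 and 10.67 in control cells. For C4b these means were 8.48 and 9.21 in BA cells, against 7.55 and 8.51 in control cells. The Xist-low and Xist-high arrays are sets found in the data. With 2 or 3 arrays of each per group, the difference between the sets was not tested.

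Within the Xist-low arrays Serping1 differed between BA and control cells by -1.59 and within the Xist-high arrays by -0.86. For C4b the 2 differences were 0.69 and 0.93, for Cfb 0.32 and 0.80 and for C1ra 0.17 and 0.26, in the order low and high. With the Xist value as a covariate the difference was -1.24 ± 0.26 for Serping1 (unadjusted p = 0.000829, adjusted p = 0.464), 0.81 ± 0.26 for C4b (unadjusted p = 0.0128, adjusted p = 0.537), 0.56 ± 0.30 for Cfb (adjusted p = 0.611) and 0.21 ± 0.16 for C1ra (adjusted p = 0.678, all limma, SE). At an unadjusted p under 0.05 that fit called 8.3% of all genes. With Xist-high or Xist-low as a block the values were -1.23 for Serping1 (unadjusted p = 0.00032) and 0.81 for C4b (unadjusted p = 0.0126), in a fit that called 8.38% of all genes at that level (limma). Each member thus kept its sign within both sets, and none passed over all genes.

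Markers of reticular stromal cells, the Cxcl12- and Lepr-expressing cells that support stem cells in marrow, moved with Serping1 and, less closely, with the other members. After each group's mean was taken off, Pearson's r with the mean of these markers was 0.96 for Serping1. It was 0.73 for C1ra, 0.55 for Cfb and 0.50 for C4b. The mean of the 7 genes (Cxcl12, Lepr, Kitl, Pdgfra, Pdgfrb, Ebf3 and Foxc1) was 8.30, 7.09, 7.49, 7.61 and 6.49 on BA replicates 1 to 5, against 9.52, 9.47, 8.60, 7.44 and 7.55 on control replicates 1 to 5. The 3 control arrays highest for Serping1 were the 3 highest for these markers, and BA replicates 2 and 5, lowest for Serping1, were the 2 lowest. All 7 averaged lower in BA cells, with a median difference of -0.996 (Lepr lowest at -1.99, Pdgfra highest at -0.65) against -0.06 over all genes, and 3 of the 7 had an unadjusted p under 0.05, all lower, as did 5.27% of all genes in that direction. With their mean as a covariate, a fit added after the values were seen, the difference of Serping1 was -0.51 ± 0.18 (unadjusted p = 0.0184, adjusted p = 0.784) and that of C4b 1.05 ± 0.40 (unadjusted p = 0.0274, adjusted p = 0.789, limma, SE). That fit called 6.19% of all genes at an unadjusted p under 0.05. The list mean also differed by Xist level, at 7.07 on Xist-high and 7.89 on Xist-low BA arrays, against 7.49 and 9.20 on the control arrays. The part of these markers in the difference of Serping1 was not tested further.

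**Figure D2:**
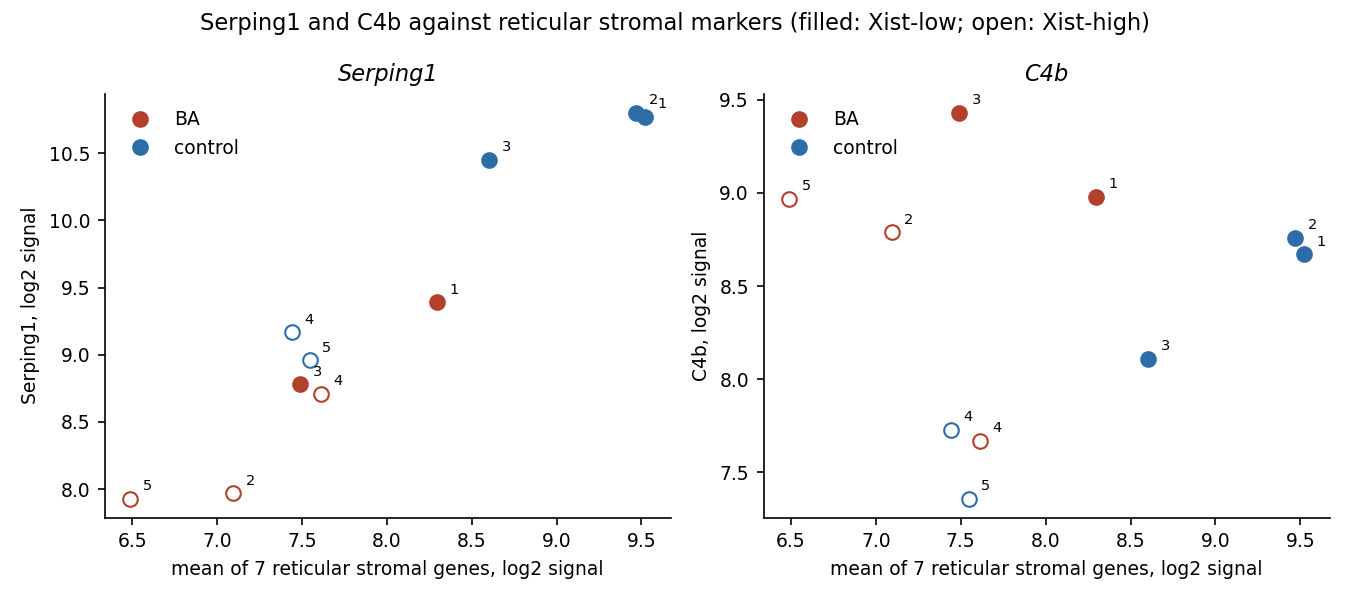
Log2 signal of Serping1 (left) and C4b (right) on the y axis against the mean log2 signal of 7 reticular stromal genes on the x axis; each point is 1 array, red for BA and blue for control, filled for Xist-low and open for Xist-high, numbered by replicate. BA replicate 5 has the lowest marker mean and Serping1 value (6.49 and 7.93), and control replicates 1 and 2 have the highest (9.52 and 9.47, with Serping1 at 10.8 on both), while for C4b the BA arrays other than replicate 4 lie above control arrays of similar or higher marker mean.

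The pathway around the members was read from a list of 53 other complement genes, of which 49 were measured. None passed over all genes in limma, and at an unadjusted p under 0.05 the count was 2 of 49, both lower in BA cells, against 5.27% of all genes lower. The median difference of the 49 was -0.02, against -0.06 over all genes, and 42 of the 49 differed by less than 0.5, as did 17837 of all 19938 genes. For 43 of the 49 both group means were under 7, as for 14677 of all genes.

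Among initiators of the classical pathway, C1s1, encoding the protease C1s, was at 7.19, 7.29, 9.0, 6.68 and 8.10 on BA replicates 1 to 5, against 8.32, 8.23, 8.65, 7.33 and 7.61 on control replicates 1 to 5. BA replicate 3 was again the highest array and BA replicate 4 the lowest, and the difference was -0.38 ± 0.42 (SE; adjusted p = 0.734, limma). The 3 chains of the recognition protein C1q, which macrophages make, averaged 6.02 and 6.04 for C1qa, 5.87 and 5.76 for C1qb and 6.2 and 5.88 for C1qc in BA and control cells. Of the 9 lectin pathway genes 8 averaged lower in BA cells, with a median difference of -0.16, against 62.1% lower and a median of -0.06 over all genes. For 8 of the 9 both group means were under 7. One had an unadjusted p under 0.05, Mbl1, encoding a mannose-binding lectin, at 4.95 ± 0.29 in BA and 5.43 ± 0.41 in control cells (SD, n = 5 each; adjusted p = 0.526, limma). Control replicate 2 was at 6.16 and the other control arrays at 5.16 to 5.32, and with that array left out Mbl1 no longer had an unadjusted p under 0.05.

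Of the components of the C3-cleaving enzymes, C2, the partner of C4, averaged 5.94 ± 0.35 in BA and 6.41 ± 0.44 in control cells (SD, n = 5 each), with a difference of -0.48 ± 0.23 (SE; adjusted p = 0.534, limma). Properdin (Cfp), which stabilises the alternative enzyme, differed by 0.13 ± 0.25. None of the 6 genes of the terminal pathway, which forms the membrane pore, had a group mean of 7 or more.

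Among regulators, clusterin (Clu), a secreted chaperone that also blocks pore assembly, was the measured gene with the lowest p of the 49. It was at 9.92, 11.01, 10.79, 10.45 and 9.92 on BA replicates 1 to 5, against 11, 10.74, 11.58, 11.42 and 11.24 on control replicates 1 to 5. The groups overlapped through BA replicates 2 and 3. The difference was -0.78 ± 0.25 (SE; 95% interval -1.32 to -0.23; unadjusted p = 0.00953, adjusted p = 0.471, limma), and it was -0.75 within the Xist-low and -0.87 within the Xist-high arrays. The membrane regulators Cd55 and Cd59a differed by -0.20 ± 0.42 and 0.15 ± 0.24, and the C3b-cleaving protease Cfi by 0.02 ± 0.11 (SE). Of the 15 measured regulators 10 averaged lower and 5 higher in BA cells, with a median difference of -0.09. Over all genes 62.1% averaged lower and the median was -0.06, so the regulators were near that background.

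Of the 9 receptor genes 8 averaged higher in BA cells, with a median difference of 0.45, against 37.9% of all genes higher. Without BA replicate 5 the receptor median was 0.14 and 7 were higher. C3ar1, the receptor of the C3a fragment, was at 5.35, 5.59, 6.53, 4.91 and 8.58 on BA replicates 1 to 5, against 5.52, 4.96, 5.26, 5.12 and 5.38 on control replicates 1 to 5. C5ar1, the receptor of C5a on myeloid cells, was at 8.73 on BA replicate 5, at 5.46 to 6.32 on BA replicates 1 to 4 and at 5.39 to 6.65 on control arrays. Neither passed (adjusted p = 0.584 and 0.631, limma). The high array was the one on which pan-haematopoietic and macrophage markers were high. The second C5a receptor, C5ar2, differed by 0.02 ± 0.14 (SE).

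**Figure D3:**
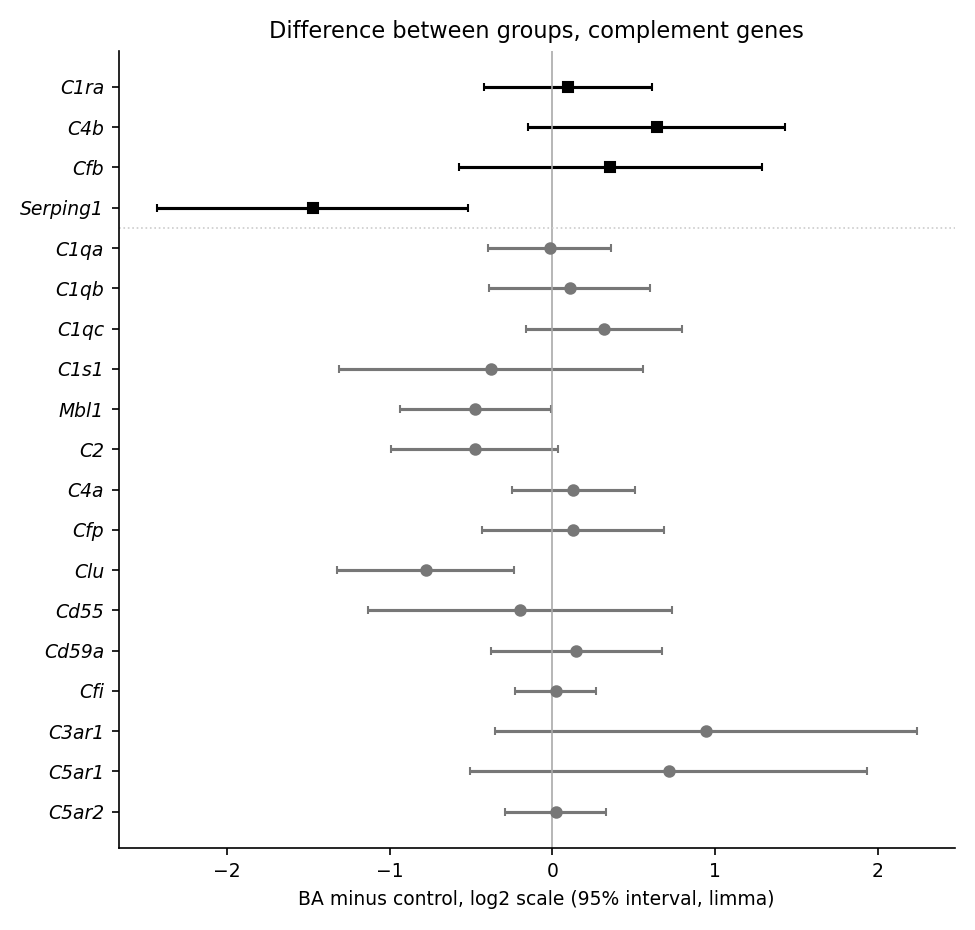
BA minus control difference on the log2 scale (x axis) with its 95% interval from limma for the 4 members (squares) and other complement genes (circles), n = 5 arrays per group. The intervals of Serping1 (-2.43 to -0.52) and Clu (-1.32 to -0.23) lie below 0 before any adjustment, and those of C4b, Cfb and C1ra include 0.

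**Figure D4:**
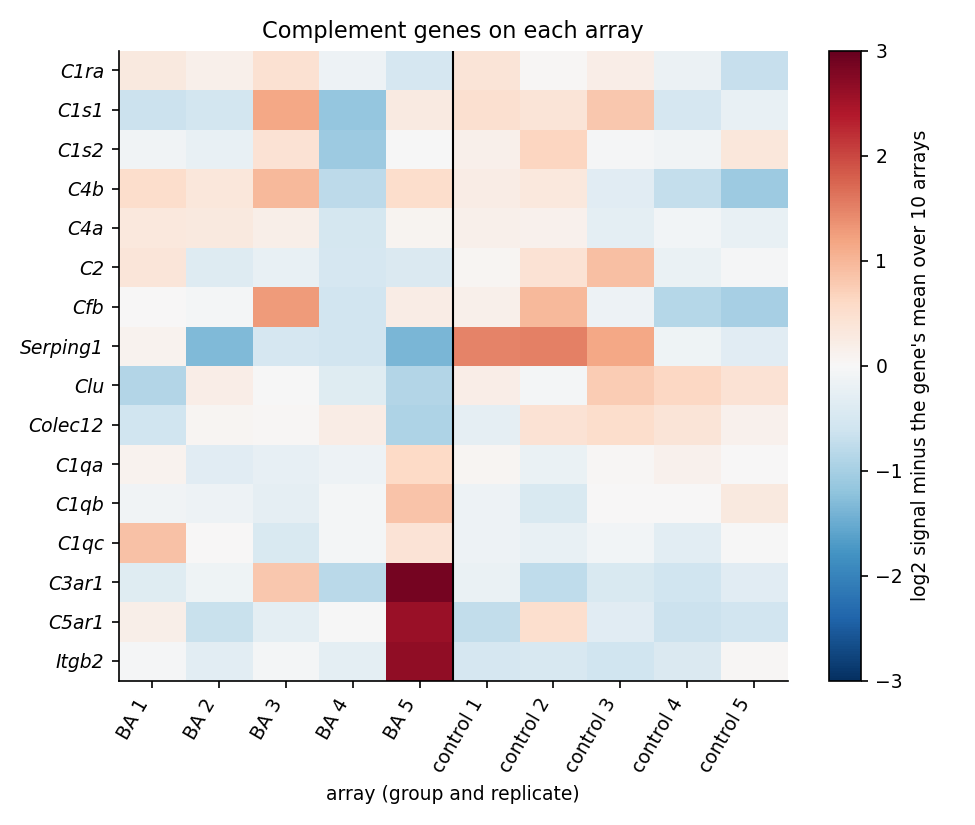
Log2 signal minus each gene's mean over the 10 arrays (colour, red above and blue below) for the members and other complement genes (rows) on the 5 BA and 5 control arrays (columns). BA replicate 3 is red for C1s1, C4b and Cfb, and BA replicate 5 is red for C3ar1, C5ar1 and Itgb2. BA replicate 4 and control replicates 4 and 5 lie below the mean for C1ra, C4b, Cfb and Serping1. Some of these cells are barely coloured, such as C1ra on BA replicate 4 (-0.15) and Serping1 on control replicate 4 (-0.12). Serping1 is bluest on BA replicates 2 and 5 (-1.32 and -1.36).

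Likeness to each member was measured as Pearson's r over the 10 arrays after each group's mean had been taken off, among 9379 named genes with a mean above the median, and is given as a description, since all genes share the arrays and the amount of RNA. The 2 genes most like Serping1 were Mme (r = 0.98), encoding the surface peptidase neprilysin, and Vcam1 (r = 0.97), encoding an adhesion molecule of marrow stroma. Both averaged lower in BA cells, Mme at 8.16 ± 1.15 against 9.26 ± 1.27 and Vcam1 at 8.13 ± 0.90 against 9.28 ± 0.96 in control cells (SD, n = 5 each; adjusted p = 0.584 and 0.533, limma). The 2 most like C4b were Tab1 (r = 0.95), an adaptor of TAK1 kinase signalling, and Cp (r = 0.95), encoding the acute-phase copper protein ceruloplasmin. Tab1 averaged 6.16 ± 0.09 in BA and 6.35 ± 0.06 in control cells, so its r rests on a spread far smaller than that of C4b (0.66 and 0.60, SD). Tab1 differed by -0.18 ± 0.08 (SE; adjusted p = 0.531, limma). Cp averaged 10.05 ± 0.93 in BA and 9.67 ± 0.73 in control cells (SD, n = 5 each). Those most like Cfb were Notch2 (r = 0.97) and Tmem176a (r = 0.91), and those most like C1ra were Ube2v2 (r = 0.95) and Vti1b (r = 0.92). These 4 differed by 0.23 ± 0.20, -0.36 ± 0.38, 0.52 ± 0.34 and 0.02 ± 0.35 (SE) between BA and control cells.

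A list of 21 genes of inflammatory signalling (cytokines, receptors, transcription factors and feedback inhibitors such as Nfkbia and Socs3) held 18 measured genes. Of these 11 averaged higher in BA cells (median difference 0.24), against 37.9% of all genes higher. At an unadjusted p under 0.05 there were 4 higher and 0 lower, against 4.13% and 5.27% of all genes, and none passed over all genes (limma). The 4, named after their values were seen, were Il1a, Il1b, Il6 and Nfkbiz, and of these the interleukin 1 beta gene Il1b averaged 7.82 ± 1.04 in BA and 6.58 ± 0.58 in control cells. The macrophage markers (9 of 10 higher, mean 0.77 higher) and neutrophil markers (8 of 10 higher, mean 0.71 higher) also averaged higher in BA cells, and the mean of the signalling list was highest on BA replicate 5 (8.21); their part in these values was not tested. The interferon-induced factor Irf1, also named after its value was seen, averaged 7.10 ± 0.70 in BA and 8.05 ± 1.04 in control cells (SD, n = 5 each; adjusted p = 0.547, limma).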

How the data were processed

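The authors deposited 1 table of log2 signals for 35557 probe sets on 10 Affymetrix Gene ST 1.0 arrays (5 BA and 5 control samples), with no missing value. GCRMA is named in the submitters' processing notes, with no version stated there, and the log2 base was inferred from the range of 1.21 to 13.7. No scanner files or detection calls entered the work, and whether a dim gene exceeded background is unknown. The number of arrays limits the precision. Genes were named from the platform annotation: 21789 probe sets had 1 symbol, 1621 several and 12147 none. With the brightest probe set kept per gene, 19938 genes were fitted in R 4.3.3 by limma 3.58.1 (two-sided lmFit and eBayes fit, BA minus control, no covariate), with Benjamini-Hochberg adjustment over all genes. The fit was tested on simulated data. No dim genes were removed. Members, gene lists and tests were chosen with earlier results of these data known. Text names the members, a list of enzymes, regulators and receptors that act on their products where measured, other listed complement genes with an unadjusted p under 0.05, and the 2 genes most like each member. Replicate numbers are shared by the groups, but over all genes same-numbered arrays did not deviate together (r between -0.10 and 0.11), so the block is an alternative. For the members the block lowered the SE, as given below. Further alternatives were other normalizations, filters, weights and variance settings, covariates, and leaving out arrays. Promoter sequences are from RefSeq (GRCm38.p6).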

Additional observations from a re-analysis of the deposited data

Results flagged for a closer look

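Among 19 complement genes named above, each group of 5 arrays was searched for 1 array far from the other 4, which chance finds in about 1 of 20 groups. Of the 38 groups 5 held such an array, against 1.9 expected if the groups were independent. They are not, since all genes are read on the same 10 arrays, and Mbl1 was named for its p in these data. The 2 counts are therefore only a rough comparison. On BA replicate 5, the array with the highest blood cell markers, C1qb was at 6.68 (5.55 to 5.76 on BA replicates 1 to 4) and C5ar1 at 8.73 (5.46 to 6.32). On BA replicate 4, C4a was at 6.00 (6.60 to 6.84 elsewhere in BA cells). On control replicate 2, Mbl1 was at 6.16 (5.16 to 5.32 on the other control arrays), and on control replicate 3, Cd59a was at 4.37 (3.38 to 3.63). None of the 4 members had such an array in either group.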

How the results depend on the processing

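In the 23 alternatives run for each member, none of C4b, Cfb, C1ra and Serping1 passed the adjusted threshold (lowest adjusted p = 0.319, limma). Some alternatives could not change a member's difference: the replicate block, the filter on the median, the trend and robust settings and averaging probe sets (1 per member). The difference kept its sign throughout for Serping1 (-1.74 to -0.51), C4b (0.45 to 1.05) and Cfb (0.08 to 0.89). That of C1ra lay between -0.0625 and 0.238 when each array was left out in turn, with the sign turned without BA replicate 3 or control replicate 5. The value of Serping1 nearest to 0, -0.51, came from the reticular stromal covariate, which takes out the part shared with those markers, as did the highest values of C4b, Cfb and C1ra (1.05, 0.89 and 0.48). With the macrophage covariate the values were -1.39 for Serping1, 0.61 for C4b, 0.34 for Cfb and 0.41 for C1ra. Each replicate block holds 1 BA and 1 control array, so it can change only the SE and p of a difference. With the block the SE was 0.32 for Serping1 (adjusted p = 0.460, limma), 0.29 for C4b, 0.37 for Cfb and 0.11 for C1ra. In the unblocked fit these were 0.43, 0.36, 0.42 and 0.23. No member was called with the block, and the number of other complement genes with an unadjusted p under 0.05 was then 4. That number, 2 in the report, was also 4 with trend and robust settings, 1 among genes with a mean above the median (14 of the list), with the Xist covariate, with Xist-high or Xist-low as a block and with the reticular covariate, and 0 with the macrophage covariate. Leaving out each array it lay between 1 (without BA replicate 5) and 5 (without BA replicate 1 or control replicate 4), and with BA replicates 4 and 5 both left out it was 4, of which 2 were higher. The count over all 19938 genes moved too. It was 1875 in the report, 1669 with the block, 1902 with trend and robust settings and 1178 with the macrophage covariate. Xist covariate, Xist block and reticular covariate gave 1654, 1670 and 1234, and the filter on the median 1019 of 9962. Without BA replicate 5, BA replicate 1, control replicate 4, or BA replicates 4 and 5 together it was 1393, 2513, 2121 and 1135. The Xist block, the reticular covariate and the joint removal of that pair of arrays were chosen after seeing the data. The causes of these shifts were not tested. C3 and Cfd gave no value.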

Other observations

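C6, a component of the membrane pore, was at 7.17 on each of control replicates 1 and 2 and at 5.26 to 5.70 on the other control arrays, against 5.15 to 5.52 on the BA arrays. These 2 control arrays were also the 2 highest for Serping1 and for the reticular stromal markers. Cd55 spread more among BA arrays, at 3.90, 3.22, 3.98, 5.49 and 5.58 on replicates 1 to 5, than among control arrays, at 4.39 to 4.82. Cr1l, the complement regulator Crry of mice, was at 6.98, 9.39, 8.31, 8.13 and 8.52 on BA replicates 1 to 5, against 7.44, 7.62, 7.58, 7.58 and 8.60 on control replicates 1 to 5. These 3 genes were chosen after their values had been seen.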
